A study of Mus musculus with 2 samples.

Results

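Neuromuscular junction myonuclei are the few nuclei of a muscle fibre that lie under the motor nerve terminal. They were chosen by their own transcripts: a nucleus was a member if it held at least 4 unique molecular identifiers (UMIs, each marking 1 captured RNA molecule) from at least 2 of the genes Chrne, Musk, Colq, Ache, Etv5, Ufsp1, Ano4 and Lrfn5, and fewer than 3 UMIs over 9 genes of other cells and of the myotendinous junction (Pdgfra, Dcn, Col1a1, Col3a1, Pecam1, Flt1, Ptprb, Ptprc and Col22a1). Of 7741 nuclei with at least 500 UMIs and at most 10% mitochondrial UMIs, 117 were members, 55 of 3833 in the control library (Ctrl) and 62 of 3908 in the library of the Net39 conditional knockout (cKO). They are described against comparison myonuclei, the other nuclei with at least 3 UMIs of the adult myosin heavy chain genes Myh7, Myh2, Myh1 and Myh4, which numbered 2907 in Ctrl and 2966 in cKO. No barcode was shared between the members of the libraries.

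Single-nucleus RNA-Seq was performed on gastrocnemius-plantaris muscle of B6C3F1 mice that were 5 months old and 3 months past tamoxifen. Mice of both groups carried Net39 fl/fl, an allele with loxP sites on either side of the first exon of Plpp7 (the gene that encodes Net39, a protein of the nuclear envelope), and both groups were given tamoxifen. The cKO mice also carried HSA-CreERT2, an inducible Cre under the human skeletal actin promoter, which acts in muscle fibres and not in other cells of the muscle, and Ctrl mice lacked Cre. There was 1 library per group, prepared from 3 pooled muscles of male mice, although the sample titles name mouse 1. No difference could therefore be tested. Every interval below is a 95% interval of counting error only, without the spread between animals. For levels and their ratios it also leaves out the spread between nuclei.

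At the neuromuscular junction, agrin from the nerve binds Lrp4 and activates the receptor tyrosine kinase MuSK, which clusters acetylcholine receptors through Dok7 and rapsyn. Nuclei under the synapse transcribe the genes of the postsynaptic apparatus, among them the receptor subunits, acetylcholinesterase and its collagen tail, while nerve activity keeps many of these genes low in the rest of the fibre. Neuregulin signalling and ETS factors such as Etv5 act on promoters of this program through a sequence called the N-box.

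The members formed a similar share of nuclei in both libraries. They made up 1.43% (1.08 to 1.86) of Ctrl nuclei and 1.59% (1.22 to 2.03) of cKO nuclei, a difference of 0.15 percentage points (−0.41 to 0.72). The median member held 3109 UMIs in Ctrl and 2966 in cKO, against 2392 and 1837 in comparison nuclei, so a fixed number of marker UMIs was reached more easily in deeper nuclei. When each nucleus was thinned to 2000 UMIs, 25 of 2063 Ctrl nuclei (1.21%) and 21 of 1485 cKO nuclei (1.41%) met the rule. At 1000 UMIs, 18 of 3575 (0.503%) and 29 of 3329 (0.871%) did, a difference of 0.37 points (−0.04 to 0.80).

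The genes that chose the members differed in how closely they marked them. Chrne encodes the adult epsilon subunit of the acetylcholine receptor, and 29 of 55 Ctrl members and 36 of 62 cKO members held its transcript, against 2.34% and 1.01% of comparison nuclei. Its summed level was 242 CPM (UMIs of the gene per 1000000 UMIs summed over the class) in Ctrl members and 7.95 CPM in comparison nuclei, and 347 against 4.88 CPM in cKO. Musk was seen in 50 of 55 and 54 of 62 members, but also in 40.1% of Ctrl and 24.8% of cKO comparison nuclei. Its level was 847 CPM in Ctrl members against 266 CPM outside, and 843 against 162 CPM in cKO. Ano4, a member of the anoctamin family of membrane proteins, was found in 27 of 55 and 39 of 62 members and in under 1% of comparison nuclei (0.860% and 0.641%). Lrfn5, a neuronal adhesion protein, was present in 5 Ctrl and 7 cKO members, and 20 of its 24 Ctrl UMIs lay in 1 nucleus. These values follow from the rule and are a description.

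Because the rule used these genes, each of them was also read in nuclei that the other 7 genes chose. In that form Chrne was present in 16 of 42 Ctrl nuclei and 28 of 54 cKO nuclei, at 24.6 times (16.2 to 36.7) and 42.2 times (28.4 to 63.1) its level in the remaining comparison nuclei. Ano4 was 107 times (79.6 to 146) and 212 times (148 to 313) higher. Etv5, the ETS factor, was 36.0 times (20.2 to 63.7) and 230 times (97.6 to 660) higher, and the wide cKO interval goes with only 6 UMIs among the comparison nuclei. Colq, the collagen tail that anchors acetylcholinesterase, was 64.6 times (37.3 to 114) higher in Ctrl and 18.9 times (12.8 to 27.3) in cKO. Ache, the esterase itself, was 14.2 and 12.4 times higher. Musk had the smallest ratios of the 8 genes, 4.15 (3.34 to 5.11) and 6.99 (5.67 to 8.54). All 8 held-out genes were thus higher in the nuclei chosen by the others, in both libraries.

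**Figure D1:**
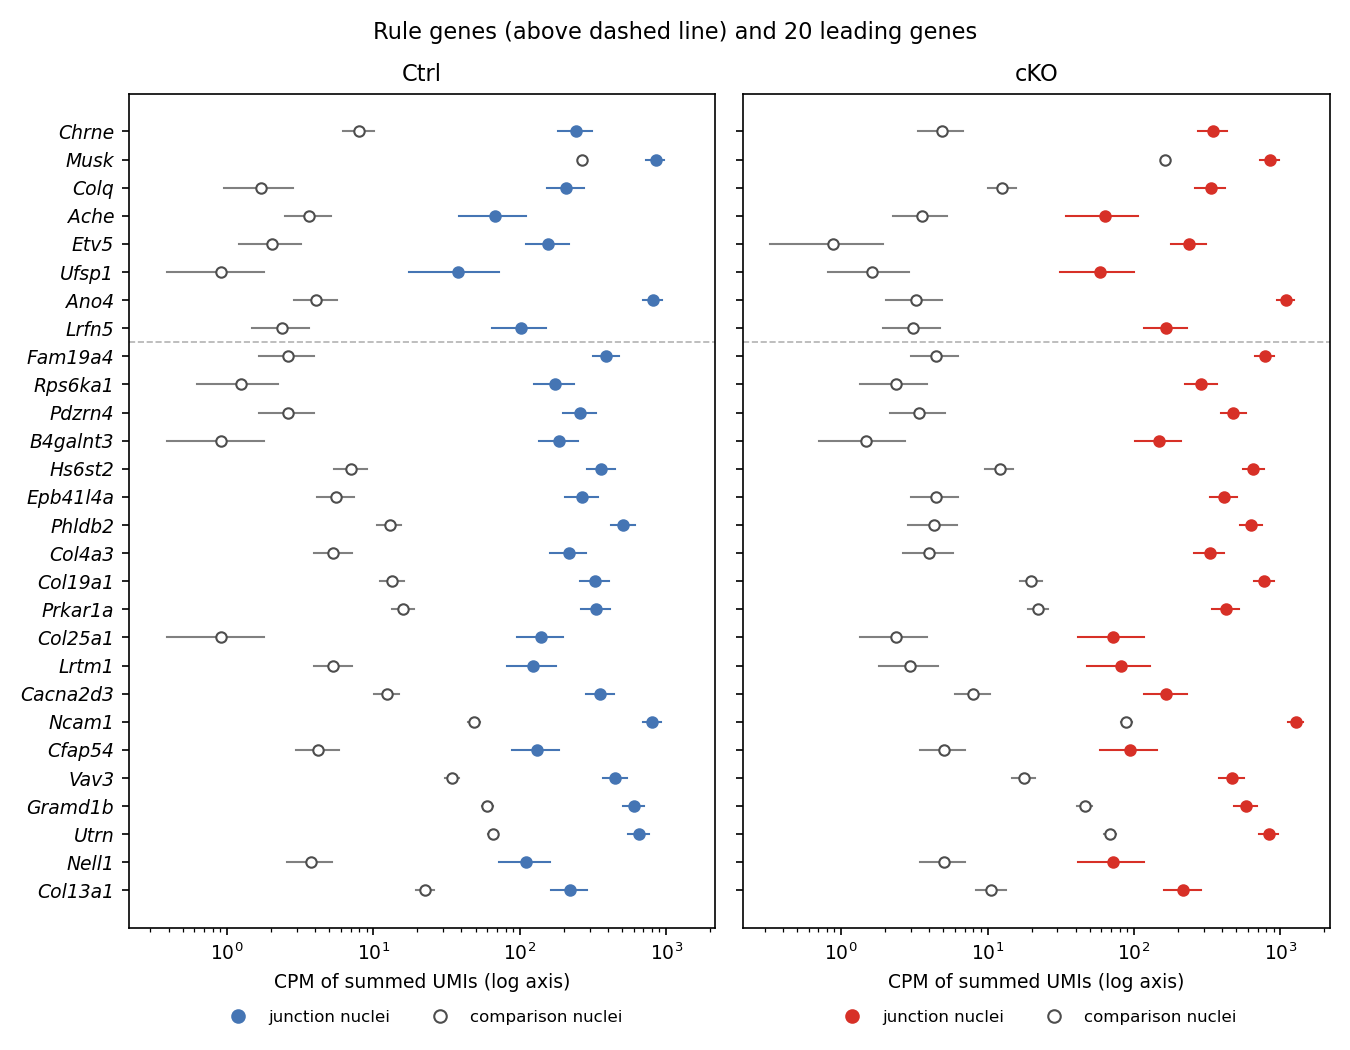
Level of the 8 genes of the rule (above the dashed line) and of the 20 leading genes outside it, in CPM of summed UMIs on a log axis, with Ctrl at the left and cKO at the right. Filled points are junction nuclei, open points are comparison nuclei and lines are 95% counting intervals. Musk is the gene with the shortest distance between the classes in Ctrl, 847 against 266 CPM.

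The promoters of Chrne and Musk are shown because the receptor subunit was rare and the receptor kinase common in nuclei outside the members. The windows reach from 250 bases before to 50 bases after the RefSeq start (GRCm38.p6) and read 5′ to 3′ along the gene. Capitals mark the N-box (CCGGAA or, on the other strand, TTCCGG) and the E-box (CANNTG, which reads the same on both strands and is the site of myogenic factors). Chrne lies on the minus strand, at chr11:70619145-70619444, and Musk on the plus strand, at chr4:58285712-58286011.
Chrne: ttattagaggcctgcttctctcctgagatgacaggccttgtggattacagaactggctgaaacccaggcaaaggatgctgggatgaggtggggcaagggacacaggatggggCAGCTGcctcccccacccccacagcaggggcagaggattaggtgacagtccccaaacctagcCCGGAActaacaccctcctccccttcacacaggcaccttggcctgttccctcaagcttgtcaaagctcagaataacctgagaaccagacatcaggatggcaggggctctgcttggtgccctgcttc
Musk: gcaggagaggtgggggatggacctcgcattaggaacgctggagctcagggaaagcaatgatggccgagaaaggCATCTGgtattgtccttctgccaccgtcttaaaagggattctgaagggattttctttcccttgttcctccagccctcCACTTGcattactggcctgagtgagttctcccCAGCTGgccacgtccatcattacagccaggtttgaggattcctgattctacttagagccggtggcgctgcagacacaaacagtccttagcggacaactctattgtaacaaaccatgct
The Chrne window held 1 N-box and 1 E-box, and the Musk window held 3 E-boxes and no N-box. Among all 32851 promoter windows of the same length, 14.9% held an N-box and 72.3% an E-box. Of the 8 genes of the rule, 7 had a window, and Chrne was the one with an N-box. Of the 20 leading genes outside the rule that are described below, 15 had a window, and an N-box was found in 1 of 26 windows, belonging to Prkar1a. E-boxes were found in 6 of 8 windows of the rule genes and in 17 of 26 windows of the leading genes. These letters are a description of the sequence and not of binding.

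Musk and Colq were also read outside the members by fibre type. A comparison nucleus was assigned to the myosin gene that held at least 60% of its adult myosin UMIs, and Myh7 marks slow fibres and Myh4 the fastest. In cKO, Colq was at 42.9 CPM (28.7 to 61.6) in the 302 Myh7-main comparison nuclei and at 4.01 CPM (2.19 to 6.73) in the 1617 Myh4-main nuclei. In Ctrl, 20 nuclei were Myh7-main and held 4 Colq UMIs, 95.7 CPM (26.1 to 245), while the 2183 Myh4-main nuclei held 6 UMIs, 0.906 CPM (0.332 to 1.97). Over all comparison nuclei Colq was 12.6 CPM in cKO and 1.70 CPM in Ctrl. It was higher in cKO in every class but Myh7-main. In Ctrl and cKO it was at 0 and 18.9 CPM in Myh1-main nuclei and at 2.16 and 13.7 CPM in Myh2-main nuclei. Nuclei without a main myosin held 5.30 and 15.3 CPM. Within each library, Colq outside the junction was highest in slow nuclei, in Ctrl from only 4 UMIs. Musk had no such order, with 288 CPM in Myh4-main and 144 CPM in Myh7-main Ctrl nuclei and 174 and 217 CPM in cKO. A further 137 Ctrl nuclei and 32 cKO nuclei held at least 4 UMIs of Musk and none of the other 7 genes, and were kept out by the demand for a second gene.

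The label was checked with genes outside the rule. The junction markers listed for this check, with earlier results known, held 11 genes that the rule had not used. Of these 9 were higher in members than in comparison nuclei in both libraries (Chrna1, Chrnb1, Chrnd, Lrp4, Utrn, Etv4, Prkar1a, Vav3 and Phldb2), Chrnd and Etv4 from 4 or fewer UMIs. With at least 10 UMIs in each library, 7 of 9 of them were, against 2721 of 11184 such genes outside the rule (24.3%). Rapsn and Dok7 were not, with ratios of 0.753 and 0.740 in Ctrl and of 0.198 and 0 in cKO. These encode rapsyn and the MuSK adaptor, and each had 5 or fewer UMIs in the members of a library, with intervals of 0.203 to 1.96 and 0.238 to 1.75 in Ctrl. In cKO the interval of Rapsn reached above 1 (0.00498 to 1.12) and that of Dok7 did not (0 to 0.977), so Dok7 went against the label there. The members were myonuclei by their sarcomere genes: Ttn was at 0.971 times its comparison level in Ctrl and 0.861 in cKO, Dmd at 0.935 and 0.865 and Ryr1 at 0.824 and 0.931. Non-fibre nuclei, those with at least 3 UMIs of the exclusion genes and fewer than 3 of the myosins, held Ttn at 7139 CPM, against 43479 CPM in Ctrl members.

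Markers of other cells that touch the synapse were scarce. Of 7 Schwann cell genes, Sox10, S100b, Cdh19 and Ngfr were among those at 0 in the members of both libraries, and the whole list summed to 12.7 and 9.01 CPM in Ctrl and cKO members, against 22.6 and 17 CPM in comparison nuclei. All 4 adipocyte genes were at 0. The 5 satellite cell genes held 3 and 2 UMIs. Of the 4 progenitor cell (FAP) genes that the rule had not used, the sum was 84.7 CPM in Ctrl members and 4.51 CPM in cKO members, against 2275 and 1929 CPM in non-fibre nuclei. The smooth muscle and pericyte list (284 and 266 CPM, against 296 and 290 CPM in comparison nuclei) and the endothelial genes outside the rule (55.1 CPM in Ctrl, and 54.1 against 40.2 CPM in cKO) were near their comparison levels, and Cdh5, Kdr and Vwf were at 0. The myotendinous list summed to 144 and 239 CPM in members and to 206 and 187 CPM in comparison nuclei. Mrc1, a mannose receptor known from macrophages, stood apart. It held 24 UMIs in 12 Ctrl members and 32 UMIs in 17 cKO members, 6.35 times (3.94 to 9.83) and 23.2 times (14.2 to 37.7) its comparison level, while the macrophage gene Csf1r was at 0 in both. With it, the 4 immune genes summed to 110 and 149 CPM in members and to 29.3 and 11.5 CPM in comparison nuclei.

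The members were not uniform. They were divided by their marker UMIs, and 6 genes reported for synaptic nuclei that the rule had not used (among them Vav3, Gramd1b, Pdzrn4, Hs6st2 and Prkar1a) were summed in each division. Members with 10 or more marker UMIs, 19 in Ctrl and 24 in cKO, held 5520 CPM (5018 to 6059) and 8472 CPM (7790 to 9198) of these genes. Members with 6 to 9 marker UMIs, 14 and 18, held 1443 and 1744 CPM. Members with 4 or 5, 22 and 20, held 1071 and 773 CPM. Comparison nuclei held 231 and 212 CPM and non-fibre nuclei 459 and 502 CPM. Over these divisions the level of the unused genes rose with the marker count, and members with 4 or 5 were nearest to the rest. The order did not hold at each count. In Ctrl the 14 members with 4 marker UMIs alone held 1605 CPM, above those with 6 to 9.

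The nuclei on either side of the threshold were set beside each other. Just inside, with 4 marker UMIs, 14 Ctrl nuclei held 1605 CPM (1225 to 2066) and 11 cKO nuclei held 575 CPM (390 to 816) of the 6 genes. Just outside, with 3 marker UMIs, 30 Ctrl nuclei held 409 CPM (309 to 532) and 19 cKO nuclei 492 CPM (321 to 721). The intervals, which leave out the spread between nuclei, lay apart in Ctrl and overlapped in cKO. Members whose marker UMIs were all Musk but 1, 10 in Ctrl and 11 in cKO, held 310 CPM (177 to 504) and 344 CPM (218 to 516). The comparison level, 231 and 212 CPM, lay inside the Ctrl interval and just below the cKO interval. The other 45 and 51 members held 3388 and 4748 CPM. At least 1 UMI of the 6 genes was present in 47 of 55 Ctrl members (85.5%) and 53 of 62 cKO members (85.5%), against 40.8% and 32.4% of comparison nuclei. Thinned to 1000 UMIs each, these shares were 63.5% and 63.2% of members, 19.3% and 18.3% of comparison nuclei, and 29.7% and 28.6% of non-fibre nuclei.

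**Figure D2:**
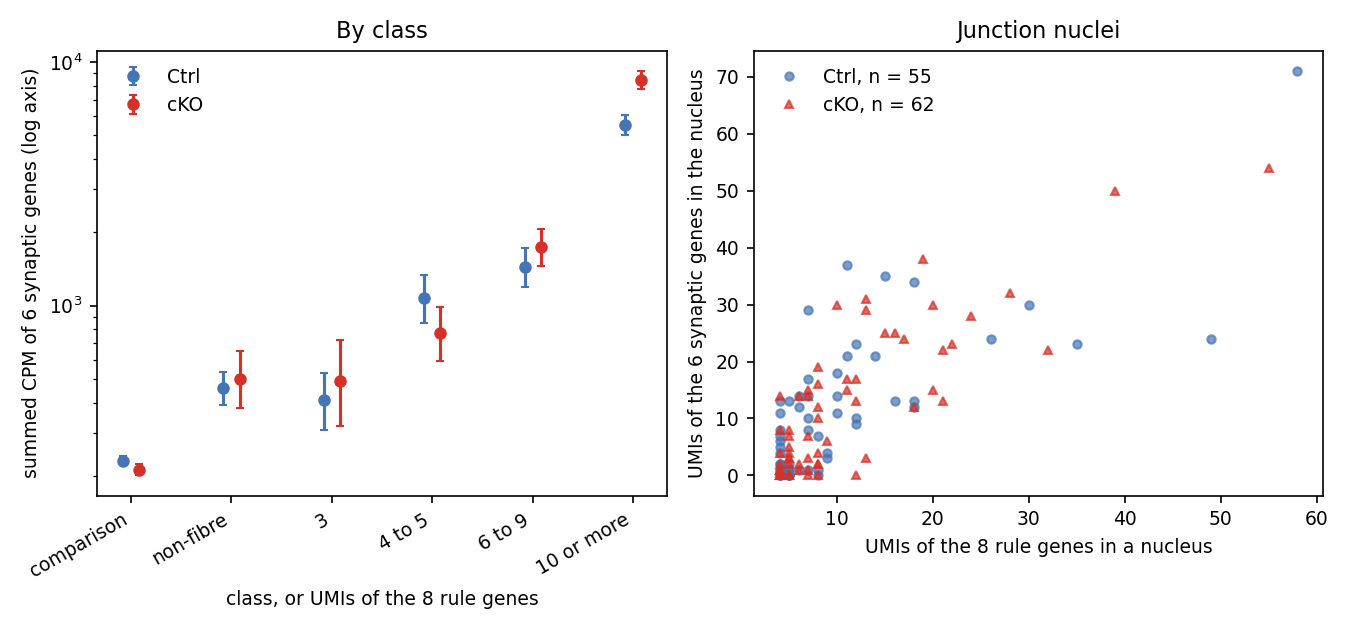
Left, summed CPM (log axis) of 6 synaptic genes that the rule did not use, in comparison nuclei, non-fibre nuclei, nuclei just outside the threshold (3 marker UMIs) and members by marker UMIs, with 95% counting intervals. Right, UMIs of the 6 genes against UMIs of the 8 rule genes in each member, where members with under 10 marker UMIs include many with none of the 6 genes.

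The synaptic genes outside the rule, 51 in 6 lists, were then compared between members and comparison nuclei. A gene counted as measured with at least 10 UMIs over both classes. In Ctrl, 21 of 47 measured genes were at least 2-fold higher in members, against 12.2% of all genes measured in this way, and in cKO 22 of 46 were, against 14.0%. With at least 200 UMIs the figures were 12 of 31 genes against 2.76% of all genes in Ctrl, and 10 of 24 against 3.45% in cKO. The median ratio of the synaptic genes was 1.67 in Ctrl and 1.86 in cKO, where that of all measured genes was 0.932 and 0.983. Since synaptic transcripts chose the members, these counts and the ratios that follow are a description.

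Of the receptor subunits, Chrna1, which binds acetylcholine, was at 33.9 CPM in Ctrl members and 2.16 CPM in comparison nuclei, 15.7 times higher (5.95 to 37.6), and 14.4 times higher (5.36 to 35.1) in cKO. Chrnb1 was 2.07 times (1.28 to 3.18) and 3.06 times (2.00 to 4.52) higher. Chrnd held 3 and 2 UMIs in members. Chrng, the subunit of embryonic and denervated muscle, held 1 UMI in Ctrl members and none in cKO members. Of the agrin and MuSK list, 2 of 12 measured genes in Ctrl were at least 2-fold higher, against the 12.2% of all genes, and none was at least 2-fold lower. In cKO 3 of 12 were at least 2-fold higher, against 14.0%, and 2 were at least 2-fold lower, Rapsn and Dok7. Lrp4, the agrin receptor, was 4.81 times (3.01 to 7.38) and 2.82 times (1.75 to 4.32) higher. Phldb2, which links MuSK signalling to microtubule capture at the synapse, was at 508 CPM in Ctrl members against 13 CPM outside, and at 631 CPM in cKO members against 4.28 CPM outside. Its ratio was 39.3 (30.1 to 51.2) in Ctrl and 147 (98.2 to 228) in cKO, and it was also present in non-fibre nuclei, at 162 and 44.0 CPM. Its partner Clasp2 differed little, at 1.17 (0.935 to 1.44) and 0.939 (0.732 to 1.19), and Macf1, a linker of actin and microtubules, was at 1.49 (1.21 to 1.82) and 1.68 (1.39 to 2.02).

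The synaptic basal lamina list had 6 of 10 measured genes at least 2-fold higher in Ctrl members and 6 of 9 in cKO, against the same shares of all genes, and 2 at least 2-fold lower in each. The lower genes were Lama4, a laminin chain, at 0.174 (0.00439 to 0.981), and Prima1, the membrane anchor of acetylcholinesterase, at 0.410 (0.0493 to 1.50) in Ctrl. In cKO they were Lama4 and Nid2, with no UMI in members. Col4a3, a collagen IV chain of the synaptic basal lamina, was at 216 against 5.34 CPM in Ctrl, 40.5 times higher (26.7 to 61.5), and 82.5 times higher (52.4 to 133) in cKO. Its partner chains Col4a4 and Col4a5 were 8.95 and 6.49 times higher in Ctrl and 24.0 and 6.58 times in cKO, from 6 to 11 UMIs each. Col13a1, a transmembrane collagen needed for synapse maturation, was 9.70 times and 20.3 times (13.8 to 29.7) higher. Lamb2, the synaptic laminin chain, was within its interval of equal levels, at 1.88 (0.796 to 3.79) and 0.910 (0.330 to 2.02).

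Among the scaffold genes, utrophin and dystrophin stood in contrast. Utrn, the utrophin gene, was at 648 CPM in Ctrl members and 65.9 CPM outside, a ratio of 9.84 (8.18 to 11.8), and 12.1 (10.2 to 14.4) in cKO. Non-fibre nuclei held Utrn at 976 and 934 CPM, above the 648 and 834 CPM of members. Dmd, which encodes its homologue dystrophin, was slightly lower in members, at 0.935 (0.899 to 0.973) and 0.865 (0.829 to 0.901). Sntb2, the beta-2 syntrophin, was 2.48 times (1.36 to 4.17) and 6.75 times (4.28 to 10.3) higher. Ank3, encoding ankyrin-G of the depths of the synaptic folds, was 2.28 times (2.12 to 2.46) and 3.00 times (2.80 to 3.21) higher, and Ank2 was at 0.978 and 0.694. Scn4a, the muscle sodium channel, was at 0.928 (0.586 to 1.40) and 1.44 (1.03 to 1.97). Ncam1, the neural cell adhesion molecule, was at 801 against 49.0 CPM in Ctrl, 16.4 times higher (13.7 to 19.4), and 14.3 times (12.4 to 16.5) in cKO.

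The neuregulin and ETS list held few UMIs in members. Of 6 measured genes in Ctrl, 1 was at least 2-fold higher in members, against 12.2% of all genes, and 1 at least 2-fold lower. In cKO 1 of 6 was at least 2-fold higher, against 14.0%, and 3 were at least 2-fold lower, with a median ratio of 0.446. Erbb2 had no UMI in members of either library, Erbb3 had 2 in Ctrl and Erbb4 7 and 2. In cKO the 1 gene of this list with at least 200 UMIs over both classes was at 0.213 times its comparison level. Etv4, an ETS factor like Etv5, held 3 and 4 UMIs in members, 28.0 times (4.10 to 165) and 30.5 times (5.68 to 164) its comparison level. Gabpa, the ETS factor that binds the N-box, was at 1.06 (0.385 to 2.35) and 1.38 (0.545 to 2.91).

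The 6 genes reported for synaptic nuclei were each at least 2-fold higher in both libraries. Pdzrn4, a PDZ domain protein, had the highest ratios of the 6, at 98.9 (60.3 to 167) in Ctrl and 141 (88.9 to 231) in cKO. Gramd1b was 10.0 times (8.26 to 12.1) and 12.6 times (10.2 to 15.5) higher. Hs6st2, a heparan sulfate sulfotransferase, was 51.1 and 53.9 times higher, and Prkar1a, a regulatory subunit of protein kinase A, 20.6 and 19.1 times higher. Vav3, a guanine nucleotide exchange factor, was 13 times (10.3 to 16.3) higher in Ctrl and 26.2 times (19.9 to 34.4) in cKO.

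The whole transcriptome was then ranked without regard to the lists. Genes outside the rule with at least 15 UMIs in the members of each library numbered 1925. They were ranked by the smaller of the lower bounds of both libraries. The first 20 were led by Fam19a4, Rps6ka1, Pdzrn4, B4galnt3 and Hs6st2, and 10 of the 20 stood in one of the synaptic lists. The share of list genes among the 1925 was not counted, and synaptic transcripts chose the members, so this count is a description. Fam19a4, a secreted chemokine-like protein, was at 390 CPM in Ctrl members and 2.61 CPM in comparison nuclei, and at 784 and 4.43 CPM in cKO, with 92 UMIs in 14 Ctrl members and 174 UMIs in 24 cKO members. Rps6ka1, a ribosomal S6 kinase of the ERK pathway, was 139 times (70.2 to 300) and 122 times (69.7 to 226) higher. B4galnt3, an N-acetylgalactosaminyltransferase, was 205 times (95.5 to 504) and 101 times (48.5 to 229) higher. The 20 included the collagen genes Col4a3, Col13a1, Col19a1 and Col25a1. Col19a1 was 24.1 and 39.1 times higher and Col25a1, a transmembrane collagen required for motor innervation, 154 and 30.5 times. Col25a1 was carried by 5 Ctrl and 6 cKO members. Cacna2d3, an auxiliary calcium channel subunit, was 28.7 and 20.9 times higher, with 31 of its 84 Ctrl UMIs in 1 nucleus. The remaining leading genes were Epb41l4a, Lrtm1, Cfap54, Gramd1b and Nell1, with ratios between 10.0 and 48.0 in Ctrl and between 12.6 and 92.5 in cKO.

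Genes of the denervation response were read because nerve activity sets the synaptic program. Of 13 measured genes 5 were at least 2-fold higher in members than in comparison nuclei in each library, where 12.2% of all measured genes were in Ctrl and 14.0% in cKO. Of these, 3 were past 2-fold in both libraries: Ncam1 and Chrna1, which also belong to the synapse, and Runx1. Ankrd1 and Arpp21 were past it in Ctrl, and Gadd45a and Cdkn1a, from 5 UMIs each, in cKO. Myog, the myogenic factor induced by denervation, had no UMI in members of either library, where 3 UMIs would be 12.7 CPM in Ctrl and 13.5 CPM in cKO. Runx1, a transcription factor induced by denervation, was 2.53 times (1.71 to 3.62) and 3.54 times (2.26 to 5.33) higher in members, with 12 of its 32 Ctrl UMIs in 1 nucleus. Between the libraries, the denervation list summed to 2008 and 2434 CPM in Ctrl and cKO members, a log2 difference of 0.28 (0.10 to 0.46), beside 0.10 (0.05 to 0.15) in comparison nuclei, and the difference of these included 0 (0.18, −0.01 to 0.36). Ncam1 alone went from 801 to 1271 CPM (log2 0.67, 0.40 to 0.94), which is more than the whole difference of the list, and the median log2 difference of the 7 genes measured in members was −0.21. The class IIa deacetylase Hdac4 was at 720 and 613 CPM (log2 −0.23, −0.57 to 0.10) and Runx1 at 136 and 117 CPM (log2 −0.21, −1.02 to 0.58).

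The cKO and Ctrl libraries were then compared within the members. Of 4824 genes with at least 10 UMIs over both sets of members, 8.56% were at least 2-fold higher in cKO and 10.2% at least 2-fold lower. Of 37 measured synaptic genes outside the rule, 2 were at least 2-fold higher (Gabpb1 and Dtnb) and 1 at least 2-fold lower. Their median log2 difference was 0.34, against −0.04 for all genes. The other 34 synaptic genes were within 2-fold between the members of both libraries.

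The 6 reported synaptic genes summed to 2716 and 3420 CPM in Ctrl and cKO members, a log2 difference of 0.33 (0.18 to 0.49), while in comparison nuclei they were at 231 and 212 CPM (log2 −0.13, −0.23 to −0.03). With Malat1 and the mitochondrial genes left out of the totals the comparison value was −0.03 (−0.13 to 0.07), so its direction was not fixed. Malat1 made up 26.0% and 30.6% of the UMIs of comparison nuclei. Hs6st2 was at 360 and 653 CPM (log2 0.86, 0.46 to 1.26) and Pdzrn4 at 258 and 478 CPM (log2 0.89, 0.42 to 1.37). In comparison nuclei these genes were higher in cKO as well or had intervals that reached 0, Hs6st2 at log2 0.78 (0.29 to 1.28) and Pdzrn4 at 0.38 (−0.52 to 1.28). The differences of log2 differences, 0.08 (−0.56 to 0.71) and 0.51 (−0.51 to 1.53), included 0. Gramd1b and Vav3 showed no such step, at 602 and 581 CPM and at 449 and 464 CPM. Fam19a4 had a log2 difference of 1.01 (0.64 to 1.39) and Col19a1 of 1.25 (0.85 to 1.66), beside 0.76 (−0.07 to 1.61) and 0.55 (0.18 to 0.92) in comparison nuclei. Cacna2d3 was lower in cKO members, at log2 −1.09 (−1.69 to −0.52), and at −0.70 (−1.39 to −0.03) without the nucleus that held most of its UMIs in each library, 31 of 84 in Ctrl. In comparison nuclei it was at −0.63 (−1.13 to −0.15). Col25a1 was at −0.96 (−1.92 to −0.05), and at 0.04 when the CPM of single nuclei were averaged. The libraries also differed in how many members held 10 or more marker UMIs, 19 of 55 and 24 of 62, and the part of that in the synaptic levels was not tested.

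Outside the members, some synaptic transcripts were lower in cKO and others higher. Chrne in comparison nuclei was 7.95 CPM in Ctrl and 4.88 CPM in cKO (log2 −0.71, −1.35 to −0.09; −0.61, −1.25 to 0.01, without Malat1 and mitochondrial genes in the totals), whereas members held 242 and 347 CPM (log2 0.52, 0.01 to 1.04). Phldb2 was at 4.28 CPM in cKO comparison nuclei, with a log2 difference of −1.60 from Ctrl, and at 508 and 631 CPM in members (log2 0.31, −0.05 to 0.68). Phldb2 was present in non-fibre nuclei, and genes of such nuclei were also lower in cKO comparison nuclei, Pdgfra at 15.1 and 4.43 CPM (log2 −1.77) and Dcn at 36.9 and 12.9 CPM (log2 −1.52). Their part in the Phldb2 value was not tested. Musk was 266 and 162 CPM in comparison nuclei (log2 −0.72, −0.82 to −0.61) and 847 and 843 CPM in members. Lrp4 was 21.1 and 36.8 CPM in comparison nuclei (log2 0.80, 0.52 to 1.08) and 102 and 104 CPM in members, and Ncam1 was 49.0 and 88.8 CPM outside (log2 0.86, 0.68 to 1.04). Chrne and Musk helped to choose the members, so their values inside and outside are set in part by the rule and are a description. The difference of log2 differences, members minus comparison nuclei, was 1.91 (1.21 to 2.64) for Phldb2. It was −0.77 (−1.71 to 0.16) for Lrp4 and −0.19 (−0.52 to 0.14) for Ncam1. Comparison nuclei include nuclei with marker UMIs that missed the rule, and they were shallower in cKO than in Ctrl, so the part of depth and of the threshold in these values was not tested.

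**Figure D3:**
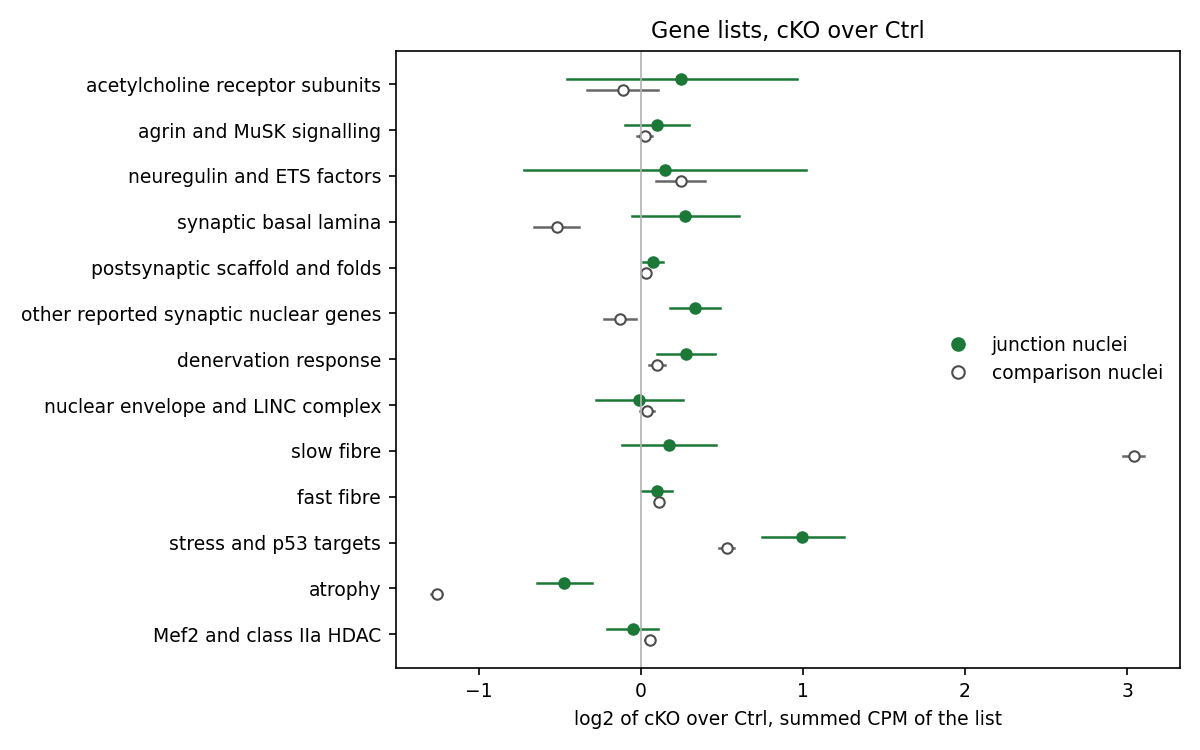
Log2 of cKO over Ctrl for the summed CPM of each gene list, in junction nuclei (filled) and comparison nuclei (open), with 95% counting intervals. The slow fibre list is at 0.17 in junction nuclei and 3.04 in comparison nuclei, and the atrophy list at −0.47 and −1.26.

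Slow fibre genes were the widest contrast between the members and the rest. The 11 genes of slow sarcomeres and calcium handling summed to 253 and 2081 CPM in Ctrl and cKO comparison nuclei, a log2 difference of 3.04 (2.98 to 3.11). In members they summed to 830 and 937 CPM (log2 0.17, −0.11 to 0.46). Of the 196 UMIs in Ctrl members, 75 lay in 1 nucleus, and with the nucleus that held most of them left out of each library the log2 difference was 0.58. Over all settings of the rule and the sums tried it lay between −0.01 and 1.68, the highest with Musk left out of the rule and so with fewer members, and below the 3.04 of the comparison nuclei in each. Myh7, the slow myosin, went from 27.0 to 468 CPM in comparison nuclei and from 76.3 to 153 CPM in members (log2 1.01, 0.14 to 1.92). The Myh7 value for members was 2.08 without exclusion genes, 2.11 without Musk and 0.48 (−0.44 to 1.43) without the highest doublet scores. Tnnt1, slow troponin T, went from 13.5 to 170 CPM in comparison nuclei and was at 89.0 and 63.1 CPM in members. Atp2a2, the slow calcium pump, was at 208 and 279 CPM in members and at 61.9 and 606 CPM in comparison nuclei. In Ctrl 10 of 11 slow genes were thus at least 2-fold higher in members than outside, where 12.2% of all measured genes were, and in cKO none was, where 14.0% were, and 7 were at least 2-fold lower. The Ctrl excess rested in part on 1 nucleus, and the log2 ratio of the summed list over comparison nuclei, 1.71, was 1.06 without it and 0.52 (−0.04 to 1.03) without Musk in the rule.

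The members were also counted by their main myosin. Of the 42 members with at least 3 myosin UMIs in Ctrl, 30 were Myh4-main (71.4%, 55.4 to 84.3), 5 Myh1-main, 2 Myh2-main, 1 Myh7-main and 4 mixed. Of 42 in cKO, 29 were Myh4-main (69.0%, 52.9 to 82.4), 5 Myh1-main, none Myh2-main, 3 Myh7-main and 5 mixed. The Myh4-main share thus differed by −2.38 points (−23.0 to 18.5) in members, while in comparison nuclei it was 75.1% and 54.5%, a difference of −20.6 points (−23.0 to −18.2). The interval of the members holds both no difference and the whole difference of the comparison nuclei, so the number of members set the limit. The value also moved with the rule, from −13.5 points with at least 3 marker UMIs to 13.9 with at least 3 marker genes and 17.3 without Musk. Myh7-main nuclei were 7.14% (1.50 to 19.5) of cKO members and 10.2% (9.12 to 11.3) of cKO comparison nuclei. A further 13 Ctrl and 20 cKO members had fewer than 3 myosin UMIs and were not assigned.

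**Figure D4:**
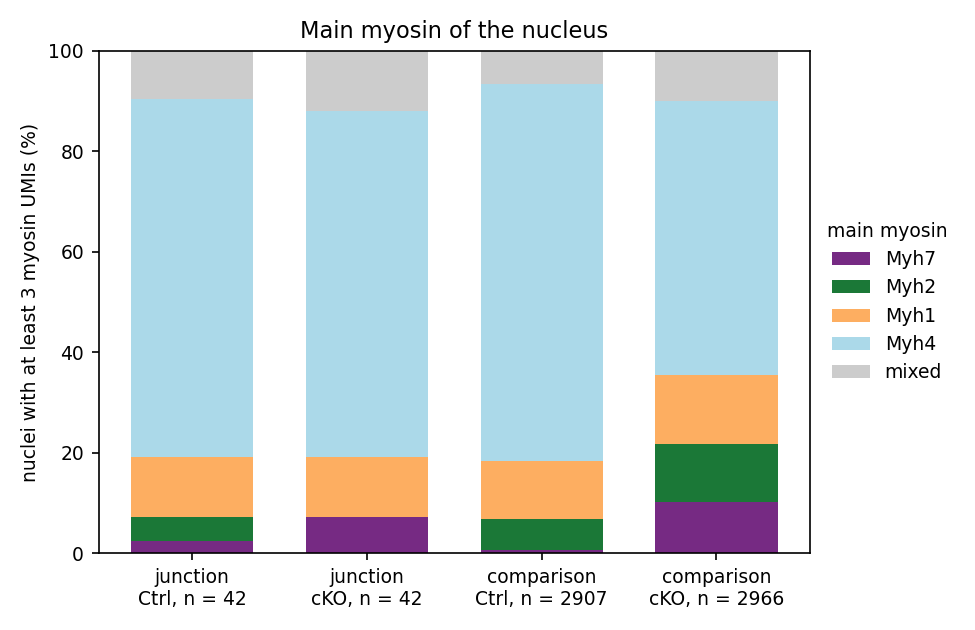
Share of nuclei, in percent, by the myosin gene that held at least 60% of the adult myosin UMIs, for junction and comparison nuclei of each library. Myh4-main nuclei are 71.4% and 69.0% of junction nuclei in Ctrl and cKO, and 75.1% and 54.5% of comparison nuclei.

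Within Myh4-main nuclei the slow fibre list also differed between the classes. It was at 213 CPM in the 30 Ctrl members and 228 CPM in the 29 cKO members (log2 0.10, −0.68 to 0.87), and at 110 and 567 CPM in comparison nuclei (log2 2.36, 2.24 to 2.48). These member values rest on 33 and 28 UMIs. The reported synaptic genes in the same Myh4-main members were at 2103 and 3421 CPM (log2 0.70, 0.49 to 0.91), so their difference between libraries was present within 1 fibre type.

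Of the list of stress genes and p53 targets, 6 of 9 measured genes were at least 2-fold higher in cKO than in Ctrl members, against the 8.56% of all genes. The list summed to 856 and 1708 CPM in Ctrl and cKO members (log2 1.00, 0.75 to 1.25), and to 789 and 1139 CPM in comparison nuclei (log2 0.53, 0.48 to 0.58). Mdm2, the ubiquitin ligase that restrains p53, was at 42.4 and 144 CPM in members, from 10 UMIs in 7 nuclei and 32 UMIs in 10 nuclei (log2 1.77, 0.71 to 2.96). With at least 3 marker genes asked of each member the Mdm2 difference was 0.32, and 0.31 without Musk in the rule. Eda2r, a p53-induced receptor of the tumour necrosis factor family, was at 29.7 and 126 CPM, with UMIs in 6 and 15 members (log2 2.09, 0.86 to 3.53). With at least 3 marker genes its interval reached 0 (1.64, −0.15 to 3.77). Phlda3, a p53 target that restrains Akt, had no UMI in Ctrl members and 11 UMIs in 5 cKO members, and Atf3, a stress transcription factor, had 1 UMI and 13 UMIs in 6 members. Trp63, a p53 relative, was at 517 and 906 CPM (log2 0.81, 0.48 to 1.15). In Myh4-main members the list was at 774 and 1018 CPM (log2 0.40, 0.02 to 0.77), against 0.27 (0.21 to 0.34) in Myh4-main comparison nuclei. The larger difference over all members was thus not seen in the Myh4-main ones alone.

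The summed atrophy genes were lower in cKO in both classes, and less so in members, where 1 of 6 measured genes was at least 2-fold higher and none at least 2-fold lower, near the 8.56% and 10.2% of all genes. The list summed to 2996 and 2159 CPM in members (log2 −0.47, −0.64 to −0.30) and to 3456 and 1443 CPM in comparison nuclei (log2 −1.26, −1.29 to −1.23). Trim63, the muscle ubiquitin ligase MuRF1, was at 1178 and 1068 CPM in Ctrl and cKO members (log2 −0.14, −0.40 to 0.11), while comparison nuclei went from 1439 to 577 CPM (log2 −1.32). The sign for members was not stable, from −0.79 with at least 3 marker genes to 0.26 without the highest doublet scores. It was thus 0.819 times the comparison level in Ctrl members and 1.85 times (1.62 to 2.11) in cKO members. Fbxo32, the ligase atrogin-1, was at 1025 and 568 CPM in members (log2 −0.85, −1.17 to −0.54). Foxo1, a transcription factor that drives both ligases, was at 542 and 275 CPM (log2 −0.98, −1.44 to −0.53). In Myh4-main members the list was at 3407 and 1800 CPM (log2 −0.92, −1.15 to −0.69), and in Myh4-main comparison nuclei at 3695 and 1433 CPM (log2 −1.37, −1.41 to −1.32), so the classes lay closer there.

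Nuclear envelope genes were examined because Net39 is a protein of that membrane. Plpp7 held 11 UMIs in 9 Ctrl members and 8 UMIs in 6 cKO members, 46.6 and 36.1 CPM (log2 −0.37, −1.89 to 1.08). In comparison nuclei it was at 49.8 and 42.8 CPM (log2 −0.22, −0.43 to 0.00). The excision removes the first exon only, and this count of the gene could not separate transcripts with and without it. The paper reports lower Net39 mRNA in cKO muscle by bulk RNA-Seq, and loss of the protein by Western blot. Why Plpp7 differed little here was not tested, so its count gave no check of the label. Syne1, which encodes nesprin-1, the anchor of synaptic nuclei to the cytoskeleton, was at 157 CPM in Ctrl members and 114 CPM outside, a ratio of 1.37 (0.959 to 1.90), and 1.74 (1.21 to 2.43) in cKO. Its level in members hardly differed between the libraries (log2 0.05, −0.65 to 0.75). Sun2, its partner in the inner membrane, held 18 UMIs in Ctrl and 5 UMIs in cKO members (log2 −1.76, −3.54 to −0.28). Lmna, the gene of lamin A and C, was at 59.3 and 67.6 CPM in members (log2 0.19, −0.96 to 1.35). Tmem38a, a nuclear envelope and sarcoplasmic reticulum channel, was at 364 and 365 CPM. The whole list summed to 1030 and 1023 CPM in Ctrl and cKO members (log2 −0.01, −0.28 to 0.26). Of 11 measured genes none was at least 2-fold higher in cKO and 2 were at least 2-fold lower, Sun2 and Tmpo, where 8.56% and 10.2% of all genes were.

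As a sum, the Mef2 and class IIa HDAC genes, which link nerve activity to synaptic transcription, were level between the libraries. They summed to 2991 and 2889 CPM in members (log2 −0.05, −0.21 to 0.11), a sum that does not show each of its genes. Of 7 measured genes, Hdac9 was the 1 that was at least 2-fold higher, near the 8.56% of all genes, at 67.8 and 158 CPM in members (log2 1.22, 0.33 to 2.17) and 75.0 and 159 CPM in comparison nuclei.

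Of the 20 genes that separated the libraries most within the members, 19 had the same sign in the comparison nuclei of the same libraries. They were selected on this difference, among 2261 genes with at least 30 UMIs over both sets of members, so their values are a description. How many of the 2261 had the same sign in both classes was not counted, so 19 of 20 has no usual share beside it. Nckap5 led the genes higher in cKO, at 55.1 and 500 CPM in members and 29.3 and 616 CPM in comparison nuclei. It was followed by Zc2hc1a, Car3, Timp3 and the noncoding 5730419F03Rik. Car3, a carbonic anhydrase of slow fibres, was at 55.1 and 361 CPM in members and 56.9 and 485 CPM outside. Fkbp5, a glucocorticoid-induced chaperone of steroid receptors, led the lower genes, at 521 and 40.6 CPM in members and 519 and 24.4 CPM outside. Arrdc2, Tbc1d1, Ucp3, Mylk4, Zbtb16, Pde10a, Prune2 and Dnm3 were also lower in both classes. Of the 38 Prune2 UMIs in Ctrl members 24 lay in 1 nucleus, and its log2 difference of −2.35 was −1.81 (−3.87 to −0.14) without the nucleus with most of its UMIs in each library, against −0.97 in comparison nuclei. It was lost with at least 3 marker genes (−0.68, −4.14 to 2.13) and without Musk in the rule (−0.11, −3.90 to 3.68).

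Because these genes were chosen for a large difference in members, a larger value there than outside is favoured by the choice. Nos1, the neuronal nitric oxide synthase, was at 267 and 31.5 CPM in Ctrl and cKO members (log2 −3.08, −4.45 to −1.95), with UMIs in 25 and 5 nuclei. In comparison nuclei it was at 275 and 129 CPM (log2 −1.09, −1.20 to −0.98). Dupd1, a dual specificity phosphatase, was at 38.1 and 198 CPM in members and 30.6 and 38.1 CPM outside. Its log2 difference in members had an interval that reached 0 with at least 3 marker genes (2.91, −0.14 to 8.43). Creb5, a transcription factor, was at 42.4 and 185 CPM in members and 60.2 and 50.2 CPM outside, but 17 of its 41 cKO UMIs lay in 1 nucleus. Its log2 difference in members, 2.12, was 0.74 (−0.80 to 2.37) with at least 6 marker UMIs and 0.89 (−1.01 to 3.07) without Musk in the rule. Its value in comparison nuclei, −0.26, was 0.11 (−0.12 to 0.34) when the exclusion genes were applied to them as well. Timp3, an inhibitor of matrix metalloproteinases, was at 21.2 and 189 CPM in members and 26.2 and 66.2 CPM outside.

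**Figure D5:**
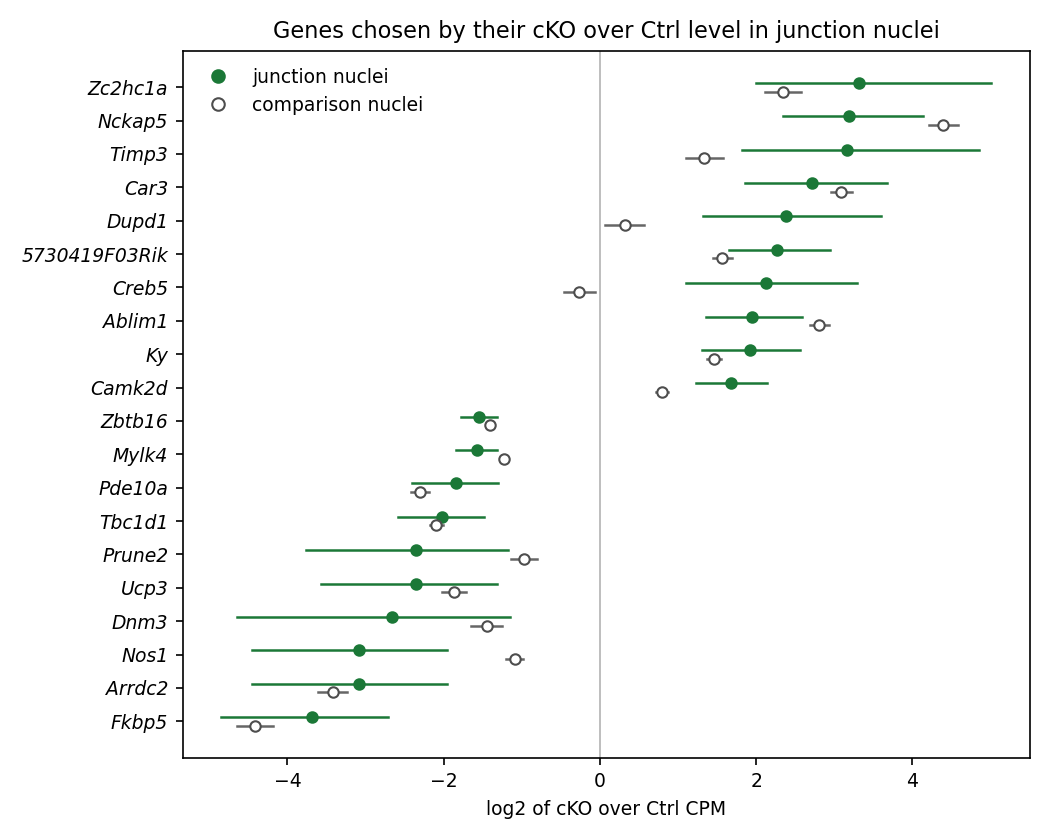
Log2 of cKO over Ctrl CPM for the 20 genes selected on this value in junction nuclei (filled), beside comparison nuclei (open), with 95% counting intervals. Creb5 is the 1 gene with opposite signs, 2.12 in junction and −0.26 in comparison nuclei, and Nos1 is at −3.08 and −1.09.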

How the data were processed

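The authors aligned reads to mm10 (GRCm38) with Cell Ranger 3.1.0 at its default parameters and deposited raw UMI counts per gene and barcode for 1 Ctrl and 1 cKO library. The labels and the methods name different releases of the droplet kit, and whether the reference held introns is not given in the sources used here. The deposited barcodes numbered 3863 and 3994, holding 10410316 and 8446070 UMIs. For each library, the UMIs of a class were added up and divided by the total of that class (CPM), in Python 3.11.15 with numpy 2.4.6, scipy 1.17.1 and pandas 2.3.3. Intervals are exact Poisson for CPM, Clopper-Pearson for shares and exact conditional for ratios, and differences combine the bounds of both values, all at 95%. The ratio and share intervals were also run on counts simulated from the models they assume. That run could not show how they behave with UMIs that cluster in single nuclei. With 1 library per group no test was made. A gene with 0 UMIs is given a limit of 3 UMIs. Doublets were scored with Scrublet (scanpy 1.11.5), whose own threshold marked 0 nuclei, so none was removed, and the highest 8% of scores, ties included, were left out as an alternative.

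Genes named one by one were the rule genes, the genes of the synaptic, denervation and nuclear envelope lists with at least 10 UMIs in members of either library or past 2-fold, the 20 leading genes and the 10 genes in each direction with the largest cKO over Ctrl difference by the bound nearest 0. Genes of the other lists, the marker genes at low counts and Mrc1 were named after their values were seen. Some genes of the lists enter counts and sums but are not reported here by name. The members and lists were chosen with earlier results of these data known. Promoter windows are from RefSeq (GRCm38.p6), where Fam19a4 is listed as Tafa4, and gene coordinates from GENCODE M21, which held 27645 of 27998 gene identifiers.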

Additional observations from a re-analysis of the deposited data

Results flagged for a closer look

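In 4 genes and 1 list the cKO library was above Ctrl in one class of nuclei and below it in the other, with neither interval reaching 0. These directions were not stable. With Malat1 and the mitochondrial genes left out of the totals, chosen for comparison nuclei after seeing the data, an interval reached 0 for the list (comparison nuclei −0.03, −0.13 to 0.07), Chrne (comparison nuclei −0.61, −1.25 to 0.01), Creb5 (comparison nuclei −0.17, −0.37 to 0.03) and Col25a1 (junction nuclei −0.86, −1.82 to 0.04). The difference between the classes was not tested, since each group had 1 library. The difference of log2 differences, junction minus comparison nuclei, was 1.23 (0.43 to 2.06) for Chrne, a gene of the rule whose levels inside and outside the members are set in part by that choice. It was 2.39 (1.35 to 3.57) for Creb5, which was chosen for its difference in members and whose difference in members had intervals that reached 0 with at least 6 marker UMIs, with at least 3 marker genes or without Musk in the rule. It was −0.50 (−0.76 to −0.24) for Ank2, at 1263 and 973 CPM in junction nuclei, where the log2 difference of −0.38 was 0.00 (−0.21 to 0.22) with at least 3 marker UMIs, and −2.33 (−4.06 to −0.75) for Col25a1, which 5 Ctrl and 6 cKO junction nuclei held. It was 0.46 (0.28 to 0.64) for the summed 6 reported synaptic genes.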

How the results depend on the processing

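The limits of these values are the 1 library per group and the few UMIs behind single genes in 55 and 62 nuclei. No paired analysis was possible because each group had 1 library. Without a test, a value is said to have moved where an alternative took it outside its own counting interval. Of 418 comparisons of a result with an alternative, 345 did not move, and 13 changed sign. For single genes between the libraries, 213 did not move, 17 moved and 5 moved to the other sign, and many of their intervals are wide. For the other results, 132 did not move and 51 did. In 8 of the 13 the interval of the reported value held 0, for the share difference, the Myh4-main difference, the slow fibre genes, Trim63 and Plpp7 in members. The other 5 were those of the log2 difference between the libraries for Ank2 in junction nuclei, to 0.0048 with 3 marker UMIs and 0.14 averaged over nuclei, for Col25a1 in junction nuclei, to 0.041 averaged over nuclei, and for Creb5 in comparison nuclei, to 0.037 without the highest doublet scores and 0.11 with the exclusion genes applied there too. The count of synaptic genes at least 2-fold higher in junction nuclei stayed between 18 and 25 in Ctrl and 21 and 24 in cKO. For values other than the shares, leaving Musk out of the rule was chosen after seeing the data, as were the alternatives for the difference between libraries in comparison nuclei. The cause of the shifts was not tested.

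With at least 3 marker UMIs the shares were 2.22% in Ctrl and 2.07% in cKO, with at least 6 they were 0.861% and 1.07%, with at least 3 marker genes 0.835% and 0.947%, thinned to 1000 UMIs 0.503% and 0.871%, and without Musk 0.704% and 0.972%. The log2 ratio of the reported synaptic genes over comparison nuclei, 3.55 in Ctrl and 4.01 in cKO, was 3.03 and 3.77 with 3 marker UMIs, 3.87 and 4.52 with 6, 4.32 and 5.22 with 3 genes, 3.24 and 3.80 without exclusion genes, 3.85 and 4.16 without the highest doublet scores, 4.76 and 5.20 without Musk, and 4.25 and 4.82 when CPM were averaged over single nuclei. Without the nucleus with most UMIs of the list it was 3.41 in Ctrl. The same ratio for Syne1, 0.45 and 0.80, was 1.02 and 1.48 without Musk.

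The ratio of the slow fibre genes over comparison nuclei, 1.71 in Ctrl and −1.15 in cKO, was 1.97 and −0.71 with 3 marker genes, 1.37 and −0.61 without exclusion genes, 0.52 and −0.77 without Musk, and 1.06 and −1.39 without the nucleus with most UMIs. It was 1.49 in Ctrl with 6 marker UMIs, and in cKO −0.69 with 3 marker UMIs and −0.48 averaged over nuclei. Between the libraries, the log2 difference of the slow genes in members was 0.72 with 3 marker UMIs, 1.05 without exclusion genes, 1.68 without Musk, 0.70 averaged over nuclei and 0.58 without the nucleus with most UMIs. That of the reported synaptic genes was 0.61 with 3 marker UMIs, 0.53 with 6 and 0.74 with 3 genes. That of the stress genes was 0.67 with 3 genes, 0.67 without Musk and 0.72 averaged over nuclei. That of the atrophy genes was −0.83 with 3 genes and −0.20 without the highest doublet scores.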
